A study of Mus musculus with 3 samples.

Results

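Thyroid hormone deiodination, transport and reception in mouse liver were followed through 6 genes, Dio1, Slc16a10, Ttr, Serpina7, Thra and Thrb, chosen by symbol from tables of 23850 rows. Each of the 6 symbols had 1 row with an estimate in every library. RNA depleted of ribosomal RNA was sequenced from the liver of mice aged 16 weeks on a C57BL6J/FVB background. There were 3 groups of 1 library each, namely wildtype mice fed freely (the wildtype library, wt AL), Ercc1 delta/- mice fed freely (the fed mutant, Ercc1 AL) and Ercc1 delta/- mice under diet restriction (the restricted mutant, Ercc1 DR). The labels carry no degree or duration of restriction, no sex, and no statement on whether a library is from 1 animal or a pool. ERCC1 is part of an endonuclease of DNA repair, and both mutant groups carry a germline genotype, not one confined to liver.

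Thyroid hormone circulates mainly as thyroxine (T4), bound to carrier proteins made in the liver. Cells take it up through membrane transporters, and deiodinases remove iodine either to make the active hormone triiodothyronine (T3) or to inactivate T4 and T3. T3 binds nuclear receptors that pair with retinoid X receptors on DNA, and the liver is a major site of both hormone activation and hormone action on lipid and glucose metabolism.

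In the restricted mutant the deiodinase gene Dio1 stood far below both freely fed libraries, while the transporter gene Slc16a10 stood far above them. Ttr, a carrier gene, was highest in the restricted mutant as deposited. The carrier gene Serpina7 and the receptor gene Thrb were highest in the fed mutant as deposited, and the receptor gene Thra was low in every library. With 1 library per group these are differences between libraries with no replicate check, and no test or p-value is given.

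Levels are in FPKM, fragment counts divided by transcript length and library size, so they can be set side by side between genes. Each value has a deposited lower and upper bound, here called its interval. What the interval covers is not stated in the sources at hand, and some values lie outside their own. Being from 1 library, it cannot give the spread between animals. Log2 ratios are of FPKM + 1, after removing from each pair of libraries the median log2 difference of the 9109 rows that reached 1 FPKM in all 3. The added 1 understates ratios of low genes, so plain folds of FPKM are given beside them. A ratio of at least 2-fold on the FPKM + 1 scale was counted as a call, over rows with at least 1 FPKM in either library. The rescaling removed a median log2 difference of 0.49 in the fed mutant against wildtype, 0.33 in the restricted against the fed mutant and 0.78 in the restricted mutant against wildtype. These comparisons share libraries, so they are not independent of each other. The intervals were not rescaled, so whether they overlap between libraries refers to deposited values and can change with scaling.

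All 9 hepatocyte markers with an estimate were at 1 FPKM or more in every library, and albumin had no estimate in at least 1 library. Their summed FPKM, Ttr included, was 2605 in wildtype, 3839 in the fed mutant and 8468 in the restricted mutant. The summed FPKM of 7 endothelial markers was 28.4, 21.5 and 12.6 in the same order, and that of 6 Kupffer cell and macrophage markers 14.8, 19.1 and 12.98. These sums are of deposited values, and abundant members weigh most in them, such as Cyp2e1 at 2431 FPKM in the restricted mutant. From the fed to the restricted mutant G6pc alone of the hepatocyte markers fell, from 22.5 to 19.3. Lyve1 alone of the endothelial markers rose, from 0.985 to 1.54. Of 7 thyroid gland markers, Foxe1 alone reached 1 FPKM, at 2.46, 5.62 and 1.67. Fewer cells of a type and less RNA per cell cannot be told apart in these bulk samples, and the part of the marker levels in the results below was not tested.

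Dio1 encodes type 1 deiodinase, a selenoprotein that converts T4 to T3 and clears reverse T3, and is itself a classic T3-induced gene of the liver. It lies on the minus strand of chromosome 4 from 107291465 to 107307143 (mm10), and its main GENCODE transcript has 4 exons. Its 250 bases before the RefSeq start, chr4:107307169-107307418 on the minus strand of GRCm38.p6, are shown with those of Slc16a10, chr10:40142255-40142504, and Serpina7, chrX:139085237-139085486, because Dio1 and Slc16a10 showed the largest ratios, in opposite directions, and Serpina7 served as a gene of smaller ratios. Capitals mark a motif that was searched for.
Dio1: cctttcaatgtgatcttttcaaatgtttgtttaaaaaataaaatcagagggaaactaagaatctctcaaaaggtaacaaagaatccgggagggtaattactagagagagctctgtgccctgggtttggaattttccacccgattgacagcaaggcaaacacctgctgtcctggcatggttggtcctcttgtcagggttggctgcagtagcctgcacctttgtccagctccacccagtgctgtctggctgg
Slc16a10: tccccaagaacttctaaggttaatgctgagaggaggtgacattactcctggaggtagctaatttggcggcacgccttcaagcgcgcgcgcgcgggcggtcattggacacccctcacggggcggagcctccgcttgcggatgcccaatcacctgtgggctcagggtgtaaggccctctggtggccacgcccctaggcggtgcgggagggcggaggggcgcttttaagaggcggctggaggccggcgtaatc
Serpina7: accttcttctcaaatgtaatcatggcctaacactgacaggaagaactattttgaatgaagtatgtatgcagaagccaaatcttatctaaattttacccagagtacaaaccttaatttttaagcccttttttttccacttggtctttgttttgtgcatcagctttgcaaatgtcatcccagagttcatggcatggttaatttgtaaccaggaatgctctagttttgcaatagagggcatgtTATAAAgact

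The motifs searched, on both strands, were the nuclear receptor half-site AGGTCA, its direct repeat spaced by 4 bases of any kind, which contains the half-site, the HNF1 motif and the TATAAA box. The Dio1 and Slc16a10 stretches held no match to any of these letters. In Serpina7 a TATAAA lay 10 to 5 bases before the RefSeq start shown, which is 27 to 22 bases before a second RefSeq start. Of 32851 stretches of the same length in the table, 12.4% held TATAAA, 14.0% the half-site, 0.0152% the direct repeat and 0.00913% the HNF1 motif. The stretches differed in composition. The Slc16a10 stretch was 64.4% G or C with 21 CG pairs, the Dio1 stretch 46.8% with 2 and the Serpina7 stretch 36.0% with 0, against medians of 52.4% and 6 over all stretches. Of the 6 genes, 4 had an entry in this table, Thra and Ttr having none. The upstream stretch of Thrb held 1 half-site, 184 to 179 bases before the start, and the stretch before a second Thrb start held a TATAAA 167 to 162 bases before it. A match describes letters and not a bound site.

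Dio1 was at 11.1 FPKM in wildtype, 11.2 FPKM in the fed mutant and 0.755 FPKM in the restricted mutant. The deposited intervals were 9.37 to 10.7, 9.44 to 10.7 and 0.562 to 0.895 in that order. On this scale, before rescaling, the freely fed libraries overlapped and the restricted mutant lay apart from both. The deposited values of the freely fed libraries are above their own intervals, and the interval midpoints, 10.06, 10.06 and 0.728, show the same order of difference. Dio1 ranked 1202 among 19055 official symbols in wildtype, 1531 among 19036 in the fed mutant and 10242 among 19055 in the restricted mutant.

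Dio1 FPKM in the fed mutant was 14.8-fold that in the restricted mutant as deposited, and between 10.5-fold and 19.0-fold when opposite ends of the intervals are divided. After rescaling that fold was 18.6, and the log2 ratio of FPKM + 1 was -3.02. Of 4449 official symbols with at least 5 FPKM in a library, 14 had a lower ratio in this comparison. Against wildtype the log2 ratio was -3.31, a 25.4-fold lower FPKM after rescaling. In the fed mutant against wildtype the log2 ratio was -0.45 after rescaling and 0.003 as deposited, within 2-fold either way.

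**Figure D1:**
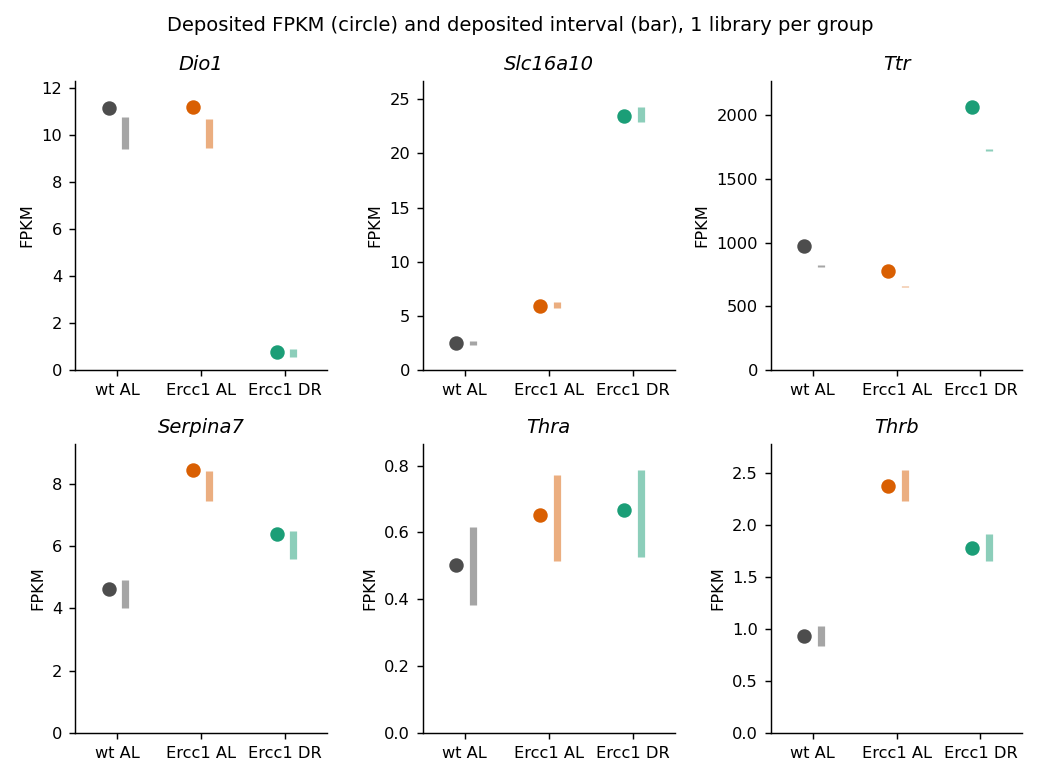
Deposited FPKM (circles) of the 6 genes in the 3 libraries, with the deposited interval of each value (bars), on linear axes from 0. Dio1 is near 11 FPKM in both freely fed libraries and at 0.755 in Ercc1 DR, and the Ttr circles lie above their own narrow intervals.

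The other deiodinase genes were low in all libraries. Dio2, which makes T3 locally in other tissues, was at 0.155 FPKM in wildtype, 0.149 in the fed mutant and 0.0905 in the restricted mutant. Dio3, the inactivating deiodinase, was at 0.807, 0.951 and 0.425 FPKM. Dio1 was thus the main deiodinase message of the freely fed livers, and in the restricted mutant all 3 deiodinase genes were below 1 FPKM. Iyd, which recovers iodide from iodotyrosines, was at 6.32, 10.8 and 20.3 FPKM, and its log2 ratio in the restricted against the fed mutant was 0.54, within 2-fold.

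Since type 1 deiodinase carries selenocysteine, the other selenoproteins and the factors that insert this amino acid were listed beside it. Of 16 other selenoprotein genes compared in the restricted against the fed mutant, none was past 2-fold upward and 2 were past it downward, namely Gpx3 at 2.55 FPKM in the fed mutant and 0.957 in the restricted mutant, and Selm at 1.496 and 0.342. Over all 12361 rows compared, 3.12% were higher and 12.0% lower by 2-fold, so the 2 lower selenoproteins are near the share of all rows. With official symbols only, 337 of 10558 rows were higher and 771 lower, a smaller lower share. The median log2 ratio of the 16 selenoprotein genes was -0.10, beside -0.06 over all rows. As deposited neither gene was past 2-fold, with log2 ratios of -0.86 for Gpx3 and -0.89 for Selm, while 6.5% of all rows were higher and 8.71% lower. Sepp1, the plasma selenium carrier, was at 422 FPKM in wildtype, 872 in the fed mutant and 1468 in the restricted mutant, and Gpx1, a glutathione peroxidase, at 261, 379 and 431. All 8 insertion factors were within 2-fold in this comparison, with a median of 0.10. After rescaling Dio1 at -3.02, Gpx3 at -1.06 and Selm at -1.04 were past 2-fold lower, and the other 14 selenoprotein genes were within 2-fold. Any part of selenocysteine in these levels was not tested.

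Slc16a10 encodes MCT10, a transporter of aromatic amino acids that also carries T3 and T4 across the cell membrane. It lies on the minus strand of chromosome 10 from 40033535 to 40142254, with 6 exons in the main transcript. Its FPKM was 2.53 in wildtype (interval 2.33 to 2.73), 5.96 in the fed mutant (5.71 to 6.27) and 23.4 in the restricted mutant (22.9 to 24.3). The intervals did not overlap in any pair, and the order was wildtype, the fed mutant, the restricted mutant.

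In the restricted mutant Slc16a10 was 3.93-fold above the fed mutant and 9.26-fold above wildtype as deposited, with log2 ratios of 1.51 and 2.13 after rescaling. In the fed mutant it was 2.36-fold above wildtype as deposited, and the log2 ratio of 0.59 after rescaling was within 2-fold. Within a library, free of scaling, Slc16a10 was at 0.227 times the FPKM of Dio1 in wildtype, 0.534 times in the fed mutant and 31.01 times in the restricted mutant. Rescaling by 8 hepatocyte markers other than Ttr, chosen after the data were seen, gave a log2 ratio of 0.97 in the restricted against the fed mutant, just within 2-fold.

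Of 9 other thyroid hormone transporters compared in the restricted against the fed mutant, 1 was at least 2-fold higher and 1 lower, with a median of -0.36, beside 3.12% of all rows higher and 12.0% lower with a median of -0.06. As deposited 2 were higher and 1 was lower, beside 6.5% of all rows higher and 8.71% lower. The higher was Slco1a4, an organic anion transporter, at 3.60 FPKM in the fed mutant and 56.9 in the restricted mutant. The lower was Slco1a1, of the same family, at 72.8 and 26.1. Slc10a1, the bile acid uptake carrier NTCP, was at 35.0 FPKM in wildtype, 51.3 in the fed mutant and 122 in the restricted mutant, and its log2 ratio of 1.01 against wildtype was just past 2-fold.

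**Figure D2:**
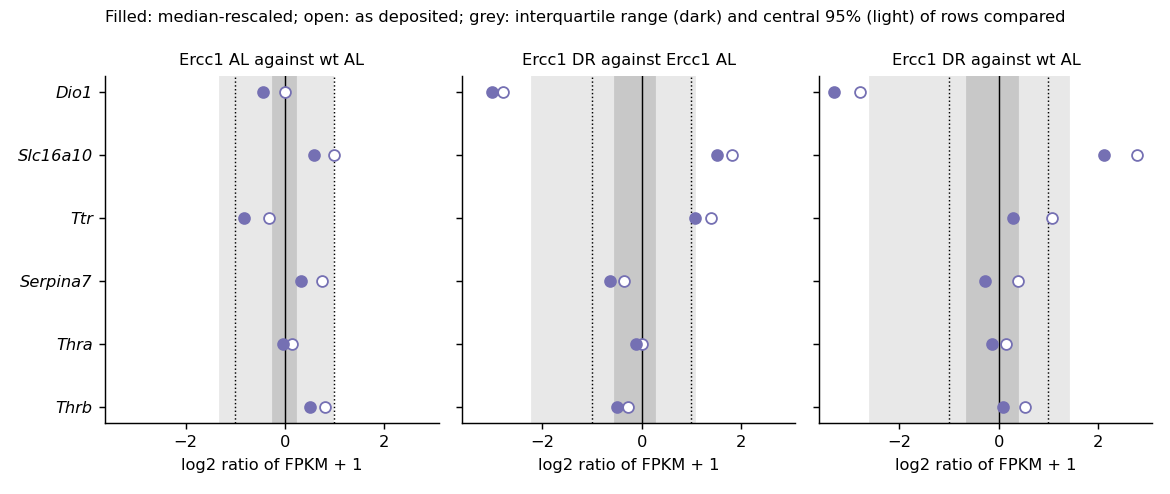
Log2 ratios of FPKM + 1 for the 6 genes in each pair of libraries, rescaled (filled) and as deposited (open), over the interquartile range (dark grey) and the central 95% (light grey) of all rows compared, with dotted lines at 2-fold. In Ercc1 DR against Ercc1 AL, Dio1 at -3.02 and Slc16a10 at 1.51 lie outside the wider band on opposite sides.

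Ttr encodes transthyretin, a plasma carrier of T4 and, through retinol-binding protein, of vitamin A. It lies on the plus strand of chromosome 18 from 20665250 to 20674326, with 4 exons, and was the most abundant of the 6 genes in every library. Its FPKM was 978 in wildtype, 781 in the fed mutant and 2062 in the restricted mutant. The intervals were 813 to 826, 649 to 660 and 1717 to 1736, which did not overlap, and all 3 deposited values lay above them. Ttr ranked 11, 20 and 3 among official symbols in that order.

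Ttr in the restricted mutant was 2.64-fold above the fed mutant as deposited, with a log2 ratio of 1.07 after rescaling, just past 2-fold. Rescaled by the hepatocyte markers this ratio was 0.48, within 2-fold. Against wildtype the direction of Ttr in the restricted mutant depended on the scaling, since the log2 ratio was 1.08 as deposited, 0.30 after median rescaling and -0.41 by the hepatocyte markers. In the fed mutant against wildtype the log2 ratio was -0.82. Within a library the FPKM of Ttr was 1.47 times that of Apoa1 in wildtype, 0.710 times in the fed mutant and 1.17 times in the restricted mutant, and 2.42, 1.14 and 1.24 times that of Rbp4, the retinol-binding protein. By these 2 ratios Ttr stood highest in wildtype. Over Serpina7 it was at 211, 92.5 and 323 times in the same order, highest in the restricted mutant. The order of the libraries thus depended on the gene Ttr was divided by.

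Serpina7 encodes thyroxine-binding globulin, a high-affinity carrier of T4 in the serpin family. It lies on the minus strand of the X chromosome from 139079250 to 139085236, with 5 exons in the main transcript. Its FPKM was 4.63 in wildtype (interval 4.01 to 4.92), 8.45 in the fed mutant (7.45 to 8.41) and 6.39 in the restricted mutant (5.59 to 6.495). No pair of intervals overlapped, and the fed mutant was highest. The log2 ratio was 0.32 in the fed mutant against wildtype and -0.65 in the restricted against the fed mutant, both within 2-fold. Against wildtype, the restricted mutant was at -0.27 after rescaling and 0.39 as deposited, so its direction is not settled.

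Other carriers and secreted liver proteins were compared as a list of 10, of which 9 had an estimate in every library and albumin did not. None was at least 2-fold higher and 1 was lower in the restricted against the fed mutant, with a median of 0.04. Of all rows 12.0% were lower, and with official symbols only 771 of 10558, a smaller share. As deposited the balance turned, with 2 higher, Apob at 1.16 and Rbp4 at 1.29, and none lower. Of all rows 6.5% were then higher and 8.71% lower. The gene that was lower after rescaling was Serpina6, the corticosteroid-binding globulin, at 39.8 FPKM in wildtype, 34.7 in the fed mutant and 18.8 in the restricted mutant, with a log2 ratio of -0.85 as deposited. Serpina7 was at 0.116, 0.244 and 0.341 times the FPKM of Serpina6, a ratio that was highest in the restricted mutant. The alpha-1-antitrypsin genes Serpina1a and Serpina1c, near-copies whose reads can be shared, were at 281 and 326 FPKM in wildtype, 281 and 329 in the fed mutant, and 192 and 215 in the restricted mutant. Rbp4 was at 404, 684 and 1667 FPKM, with a log2 ratio of 0.95 in the restricted against the fed mutant.

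Thrb encodes the T3 receptor beta, the main T3 receptor of hepatocytes. It lies on the plus strand of chromosome 14 from 17660960 to 18038088, and its row joins 2 transcription start entries. Its FPKM was 0.933 in wildtype (interval 0.840 to 1.03), 2.38 in the fed mutant (2.23 to 2.53) and 1.78 in the restricted mutant (1.65 to 1.91). The intervals did not overlap, and wildtype was lowest. The log2 ratio was 0.51 in the fed mutant against wildtype, -0.50 in the restricted against the fed mutant and 0.09 in the restricted mutant against wildtype, all within 2-fold. The plain FPKM in the fed mutant was 2.55-fold that in wildtype as deposited and 1.81-fold after rescaling.

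Thra encodes the T3 receptor alpha, which predominates in heart, brain and bone. Its deposited span, chromosome 11 from 98741873 to 98765111 on the plus strand, ends 2823 bases before that of Nr1d1, the clock repressor REV-ERB alpha, which is transcribed towards it. In GENCODE the Thra gene runs on to 98769006 and shares exonic sequence with Nr1d1, so the deposited row leaves out the shared end. Its FPKM was 0.501 in wildtype (interval 0.384 to 0.616), 0.652 in the fed mutant (0.515 to 0.773) and 0.668 in the restricted mutant (0.526 to 0.787). All 3 intervals overlapped, so they do not set the libraries apart, and Thra was below the level needed for comparison. Nr1d1 itself was at 1.52, 1.45 and 0.503 FPKM.

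Thrb exceeded Thra in each library, by 1.86-fold in wildtype, 3.65-fold in the fed mutant and 2.67-fold in the restricted mutant. Ordered by FPKM, wildtype ran Ttr, Dio1, Serpina7, Slc16a10, Thrb, Thra, and the fed mutant ran the same way. The restricted mutant ran Ttr, Slc16a10, Serpina7, Thrb, Dio1, Thra, and there the intervals of Dio1 and Thra overlapped. In all other neighbouring pairs within a library the intervals were apart.

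Counted over the 5 genes that reached 1 FPKM, none was past 2-fold in the fed mutant against wildtype, where 2.35% of 12359 rows were higher and 4.9% lower by that much. In the restricted against the fed mutant, 2 were higher and 1 was lower, where 3.12% of rows were higher and 12.0% lower. In the restricted mutant against wildtype, 1 was higher and 1 lower, where 6.02% of 12127 rows were higher and 16.4% lower. As deposited, Ttr joined the higher genes of the last comparison, where 24.0% of rows were then higher. The split of rows moved with the scaling, since 72.5%, 42.7% and 73.6% of the rows past 2-fold were higher as deposited, in the order of the comparisons, against 32.5%, 20.7% and 26.8% after rescaling.

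Genes with the nearest pattern were found for the 4 genes that reached 5 FPKM somewhere, as the Euclidean distance over the log2 ratios of the fed mutant against wildtype and the restricted against the fed mutant. These ratios rest on 3 libraries and share the fed mutant. For Dio1 the nearest of 4449 genes were Tnfrsf11a (229 FPKM in wildtype, 288 in the fed mutant and 61.4 in the restricted mutant), Henmt1 (15.4, 19.3 and 3.84) and Car3 (198, 127 and 23.2), at distances of 0.56, 0.72 and 0.73. Those distances exceed the ones found for the other 3 genes. In wildtype the Tnfrsf11a row stood above the hepatocyte markers Apob at 209 and Cps1 at 182 FPKM. Whether that row measures the message of Tnfrsf11a was not tested. For Slc16a10 the nearest genes were Cyp2c54, Hrg and Tdo2, at 0.09, 0.13 and 0.14. Tdo2, the tryptophan dioxygenase, was at 111, 219 and 746 FPKM. For Ttr they were Ugt1a5, Pddc1 and Rnd2, and for Serpina7 Ccbl1, Bax and Pkdcc, all at distances of 0.11 or less.

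**Figure D3:**
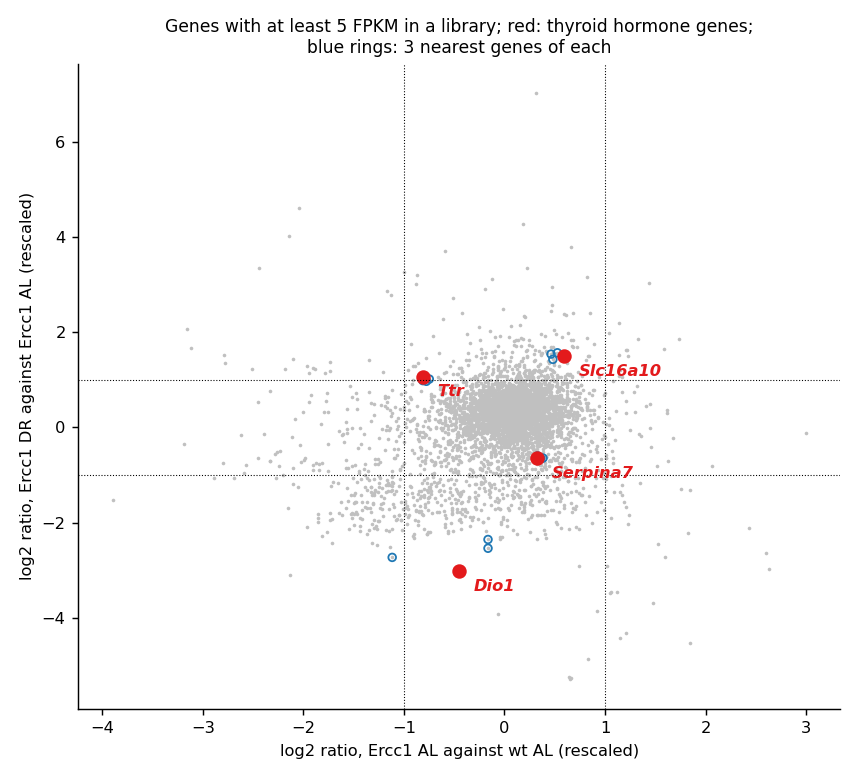
Log2 ratios of 4449 official symbols in Ercc1 AL against wt AL (horizontal) and Ercc1 DR against Ercc1 AL (vertical), both rescaled, with dotted lines at 2-fold. Dio1 (-0.45, -3.02) lies at the thin lower edge of the cloud, at 0.56 or more from its nearest genes (blue rings), while Serpina7 (0.32, -0.65) has neighbours within 0.06.

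Enzymes that conjugate thyroid hormone for excretion were higher in the restricted mutant in several cases. Against the fed mutant, 3 of 8 were past 2-fold upward and none downward, with a median log2 ratio of 0.52, beside 3.12% of all rows higher, 12.0% lower and a median of -0.06. As deposited the counts were also 3 and 0, beside 6.5% of all rows higher and 8.71% lower. The sulfotransferase Sult1a1 was at 34.5 FPKM in wildtype, 57.8 in the fed mutant and 246 in the restricted mutant. The glucuronosyltransferase Ugt1a1, which acts on T4 as well as bilirubin and shares exons with other Ugt1a genes, was at 18.1, 29.0 and 102 FPKM. The sulfotransferase Sult1d1 was at 9.82, 33.6 and 133 FPKM. In the fed mutant against wildtype, 2 of 8 were higher and none lower, beside 2.35% of all rows higher and 4.9% lower. As deposited these counts were the same, beside 5.8% and 2.2% of all rows. The 2 were Sult1d1 and Ugt2b1, the latter at 21.4 FPKM in wildtype and 94.98 in the fed mutant.

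The partners and coregulators of the receptors were mostly within 2-fold. Of 18 genes none was higher and 2 were lower in the restricted against the fed mutant, with a median of 0.05. Of all rows 12.0% were lower, and with official symbols only 771 of 10558, a smaller share. As deposited none was higher and 1 was lower, beside 6.5% of all rows higher and 8.71% lower. Ncoa3, a coactivator, was at 22.9 FPKM in wildtype, 13.9 in the fed mutant and 4.52 in the restricted mutant, and Gps2, a subunit of the NCOR corepressor complex, at 12.7, 11.8 and 6.28, with log2 ratios in this comparison of -1.43 and -0.81 as deposited. Rxra, the main retinoid X receptor of liver, was at 16.3, 20.1 and 25.9 FPKM, with a log2 ratio of 0.03 in the restricted against the fed mutant.

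Liver genes known to be induced by T3 did not go one way. Of 17 compared in the restricted against the fed mutant, 2 were at least 2-fold higher and 1 was lower, with a median of 0.12, beside 3.12% of all rows higher and 12.0% lower. The higher ones were Idh3a, a subunit of mitochondrial isocitrate dehydrogenase, at 5.41 FPKM in the fed mutant and 23.4 in the restricted mutant, and Ppargc1a, a coactivator of mitochondrial genes, at 0.811 and 3.20. The lower was Hr, at 2.60 and 0.857, which was within 2-fold as deposited at -0.96. Hr is a corepressor that T3 induces directly in brain, so its place in a list of liver genes is less sure. By sign alone, 10 of the 17 had a rescaled ratio above 0. Klf9, a transcription factor with a thyroid response element, was at 3.91 FPKM in wildtype, 7.37 in the fed mutant and 14.6 in the restricted mutant, within 2-fold of the fed mutant after rescaling.

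In the fed mutant against wildtype, 1 of 17 T3-induced genes was higher and 5 were lower, beside 2.35% of all rows higher and 4.9% lower. The lower ones were Thrsp (78.3 and 26.0 FPKM in wildtype and the fed mutant), Me1 (36.6 and 11.2), Acaca (10.1 and 3.97), Fasn (13.2 and 6.86) and Fgf21 (2.76 and 0.932). The first 4 serve fatty acid synthesis, which insulin and feeding also control, and Fgf21 is a hepatic hormone of metabolism. As deposited 2 were higher and 3 lower, beside 5.8% of all rows higher and 2.2% lower, since Fasn at -0.85 and Fgf21 at -0.96 fell within 2-fold and Cpt1a, the carnitine palmitoyltransferase of fatty acid oxidation, passed it at 1.32. Dio1 was within 2-fold in this comparison. In the restricted mutant Thrsp was at 25.2, Me1 at 16.2, Acaca at 5.54 and Fasn at 12.6 FPKM, and all 4 were within 2-fold of the fed mutant, where Dio1 was not. Against wildtype Thrsp at -2.36, Me1 at -1.87 and Acaca at -1.45 were past 2-fold lower in the restricted mutant, as was Dio1. Fasn at -0.79 was within 2-fold. As deposited Thrsp at -1.60, Me1 at -1.13 and Dio1 at -2.79 stayed past 2-fold, and Acaca at -0.76 did not. Of 18 T3-induced genes compared in the restricted mutant against wildtype, 3 were higher and 6 lower, beside 6.02% of all rows higher and 16.4% lower. As deposited the balance turned to 6 higher and 3 lower, beside 24.0% of all rows higher and 8.63% lower.

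**Figure D4:**
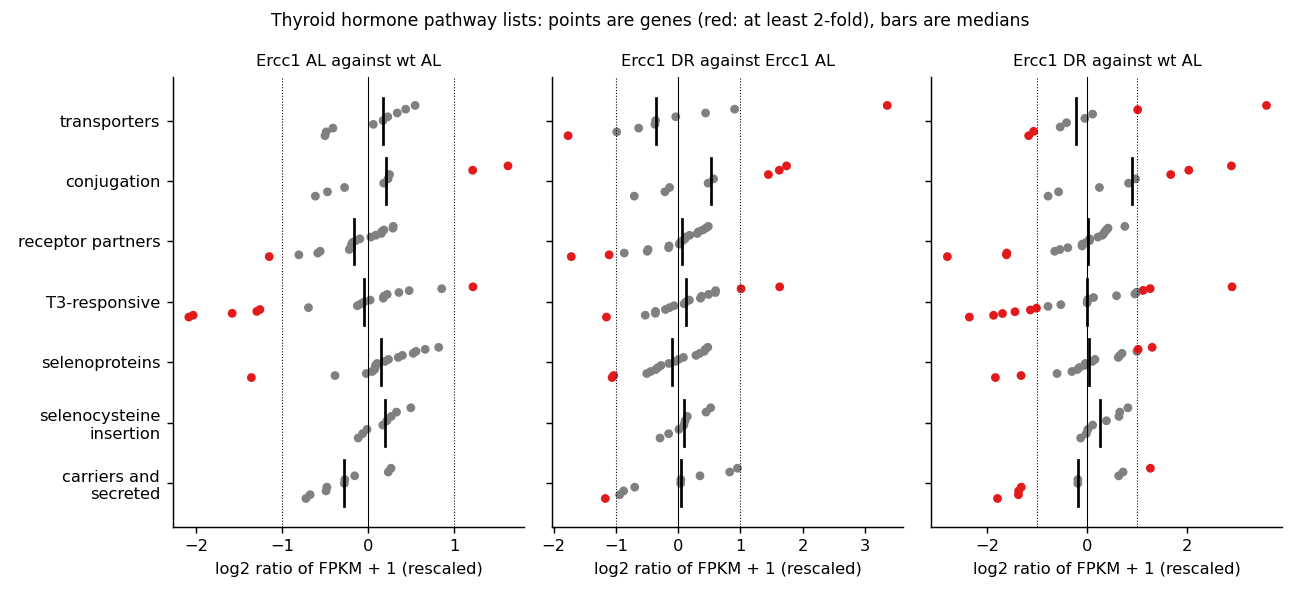
Rescaled log2 ratios of genes in 7 thyroid hormone pathway lists for each pair of libraries, with each list's median (bar) and genes at least 2-fold apart in red. In Ercc1 DR against Ercc1 AL the medians of these 7 lists run from -0.36 for transporters to 0.52 for conjugation, and the list of other deiodinases, with 1 gene compared (Iyd, 0.54), is not drawn.

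**Figure D5:**
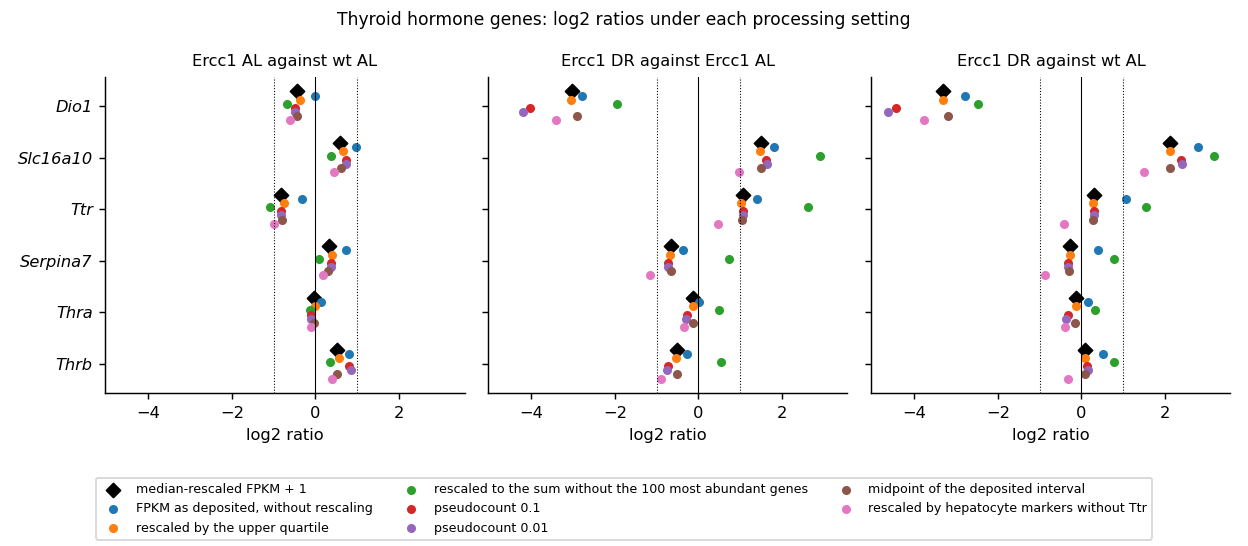
Log2 ratios of the 6 genes under the median rescaling (black diamonds) and 7 other settings (circles), with dotted lines at 2-fold. Dio1 in Ercc1 DR against Ercc1 AL ranges from -4.20 to -1.94 and stays past 2-fold, while Serpina7, Thra and Thrb change sign in Ercc1 DR against Ercc1 AL under at least 1 scaling.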

How the data were processed

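RNA of 3 liver libraries, 1 per group, was analysed from gene tables. Per the file headers each table holds FPKM computed by the authors, with a lower and an upper bound and a status code, and reads were placed on mm10, per the submitters' processing notes. The program, annotation and use of strand are not given in the sources at hand. The tables hold no counts, so depth is unknown. Some FPKM values (9.73% of wildtype, 12.9% of fed mutant and 13.0% of restricted mutant rows) lie outside their own bounds. Rows with status HIDATA or FAIL were treated as missing (62, 96 and 56). Table starts were 1 below RefSeq's for 12154 of 21416 matched genes and equal for 717, so 1 was added. Where a symbol repeated, the most abundant row was kept, which touched none of the 6 genes. Official symbols leave out predicted models, small RNAs, pseudogenes and receptor segments.

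No test was made, with 1 library per group. Log2 ratios used a pseudocount of 1, median rescaling split evenly over the pair, a filter of 1 FPKM in either library and calls at 2-fold. The code was tested on simulated data (Python 3.11.15, pandas 2.3.3). Named are the 6 genes, up to 4 members of each list with the largest ratios, overlapping genes and nearest patterns. Other list members, and the within-library ratios, were chosen after their values were seen. The genes and lists were chosen with earlier results of these data known. Promoter stretches are from RefSeq (GRCm38.p6) and exons from GENCODE. Alternatives were other scalings, pseudocounts and filters, interval midpoints and official symbols only.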

Additional observations from a re-analysis of the deposited data

How the results depend on the processing

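No paired analysis was possible because each group has 1 library. Dio1 in the restricted mutant kept its direction and stayed past 2-fold in all 7 alternatives against both freely fed libraries, with log2 ratios from -4.20 to -1.94 against the fed mutant and from -4.64 to -2.46 against wildtype. Slc16a10 did so against wildtype, from 1.52 to 3.19. The cause of the changes that follow was not tested. Rescaled by hepatocyte markers without Ttr, an alternative chosen after the data were seen, Slc16a10 in the restricted against the fed mutant was at 0.97, Ttr at 0.48 and Serpina7 at -1.16, and against wildtype Ttr was at -0.41 and Thrb at -0.31. As deposited, Dio1 and Thra in the fed mutant against wildtype were at 0.0030 and 0.14, Thra in the restricted against the fed mutant at 0.014, and in the restricted mutant against wildtype Ttr was at 1.08, Serpina7 at 0.39 and Thra at 0.15. With libraries scaled to summed FPKM, leaving out the 100 most abundant rows, Ttr was at -1.07 in the fed mutant against wildtype, Serpina7, Thra and Thrb at 0.73, 0.50 and 0.55 in the restricted against the fed mutant, and Ttr, Serpina7 and Thra at 1.55, 0.79 and 0.33 in the restricted mutant against wildtype. Small RNA rows held 94.0%, 92.1% and 84.7% of that sum in wildtype, fed and restricted mutant.

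Rows past 2-fold in the fed mutant against wildtype numbered 896, and 1466 and 1562 with pseudocounts of 0.1 and 0.01 and 534 with official symbols only. In the restricted against the fed mutant they numbered 1865, and 3085 and 3226 with those pseudocounts, 6573 by the sum and 2803 by the hepatocyte markers. With official symbols only they numbered 1108 (337 higher, 771 lower) of 10558. In the restricted mutant against wildtype they numbered 2722, and 4186 with a pseudocount of 0.01, 5632 by the sum and 1767 at 5 FPKM or more. Of 86 pathway list genes compared, 13 were past 2-fold in the restricted against the fed mutant (6 higher, 7 lower), beside 1865 of 12361 rows. By the sum 61 were, all higher, beside 6573 rows. By the hepatocyte markers 20 were (4 higher, 16 lower), beside 2803 rows. In the restricted mutant against wildtype 28 of 86 were past 2-fold (11 higher, 17 lower), beside 2722 of 12127 rows. By the sum 51 were (47 higher, 4 lower), beside 5632 rows. As deposited 9 list genes were higher and 2 lower in the first of these comparisons, beside 6.5% and 8.71% of all rows. In the second 27 were higher and 6 lower, beside 24.0% and 8.63%. In the fed mutant against wildtype 8 were higher and 4 lower as deposited, beside 5.8% and 2.2% of all rows. After rescaling 3 were higher and 7 lower there, beside 2.35% and 4.9%. The share of higher rows in the restricted against the fed mutant was 96.8% by the sum and 4.67% by the hepatocyte markers, against 20.7%.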
